A study of Mus musculus with 8 samples.

Results

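The genes described here were 10 genes of the primitive streak and mesendoderm, out of 22878 gene entries measured by RNA-Seq. They were grouped by name, as genes with known roles in the gastrulating embryo, at a time when earlier results of these data were known, and are Wnt3, Fgf8, T, Eomes, Mixl1, Gsc, Evx1, Lhx1, Mesp1 and Cer1. The 8 libraries came from 5 mouse pluripotent lines, with 2 libraries each for the embryonic stem cell (ESC) line R1 and the secondary induced pluripotent stem cell (iPSC) lines 16-6 and 32, and 1 library each for the iPSC lines S8 and T2. The iPSC lines were derived from somatic cells of adult mice that had themselves been made entirely from iPSCs, in which doxycycline switches on Oct4, Sox2, c-Myc and Klf4, and doxycycline was withdrawn before the colonies were picked. Line 16-6 came from hematopoietic cells, 32 from adipocyte progenitors, S8 from epidermal cells and T2 from the stomach lining. All lines, R1 included, grew on mitomycin C-treated mouse embryonic fibroblasts in medium with serum and LIF. Every condition was thus 1 cell line, so line, tissue of origin and reprogramming cannot be told apart. The sample labels give embryo as the tissue, while the methods describe cultured cell pellets.

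The primitive streak is the site where epiblast cells leave the epithelium to form mesoderm and definitive endoderm. Wnt3 and Nodal signals induce it, the T-box factors T (Brachyury) and Eomes drive the exit of cells from the epiblast, and Mixl1, Gsc, Lhx1, Evx1 and Mesp1 mark cells along the streak and its first descendants. In cultures of pluripotent cells these genes are widely used as signs of early differentiation towards mesendoderm.

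The confidence limits of the deposited values implied 15.5 to 16.7 fragments per library in units of 1000000. FPKM here is the number of fragments scaled by Cufflinks to transcript length and library size, then divided by 1 constant for all libraries, so it compares levels between genes per length. The 2 libraries of each replicated line differed by more than counting noise alone, by a variance 1.08 to 1.34 times the Poisson expectation over 4921 to 5308 genes. The methods call them biological replicates, and the labels give only replicate numbers, so the p-values measure the spread between libraries of 1 clone. Pluripotency markers such as Pou5f1 and Nanog were present in every library, with a summed FPKM over 10 markers of 2824 to 5641. The differences below are in log2(FPKM + 1), which understates the change of low genes. They were tested with limma across 13693 entries that reached an FPKM of 1 in at least 1 library. A gene was counted as higher or lower when its Benjamini-Hochberg adjusted p was below 0.05 and its log2 difference was at least 1 in size. This size is called the 2-fold minimum below. It is 2-fold in FPKM + 1, so a low gene can differ by more than 2-fold in FPKM and stay under it. With 1 library each, S8 and T2 were assumed to vary like the other lines. The contrasts against R1 share the same 2 R1 libraries.

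Of the 10 genes, 6 passed the filter and were tested. T, Eomes and Fgf8 reached an FPKM of 1 in R1 itself, whereas Wnt3, Mixl1 and Gsc did so only in iPSC libraries. These last 3 genes entered the test through the lines where they were high, so the counts and medians over the 6 genes describe them and are no evidence about the group. In 16-6, T, Eomes, Wnt3 and Fgf8 were higher than in R1, where 3.58% of all entries tested were called higher in this comparison and 7.11% were called in either direction. In 32, T, Eomes, Fgf8 and Mixl1 were higher, where the shares were 1.54% of all entries called higher and 9.77% in either direction. In S8 only Fgf8 was higher, with 6.93% of all entries called higher and 16.7% in either direction. In T2 Fgf8 and Wnt3 were higher, with 3.95% called higher and 10.5% in either direction. None of the 6 genes was called lower than R1 by limma in any line, where 3.53%, 8.23%, 9.74% and 6.54% of all entries were called lower in 16-6, 32, S8 and T2, and T in S8 was the only one lower at an unadjusted p below 0.05. The median difference of the 6 genes was 1.41 in 16-6, 1.58 in 32, 0.07 in S8 and 0.73 in T2, beside -0.03, -0.02, -0.03 and -0.03 for all entries tested. As these are bulk samples, more cells expressing a gene and more RNA per cell cannot be told apart.

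**Figure D1:**
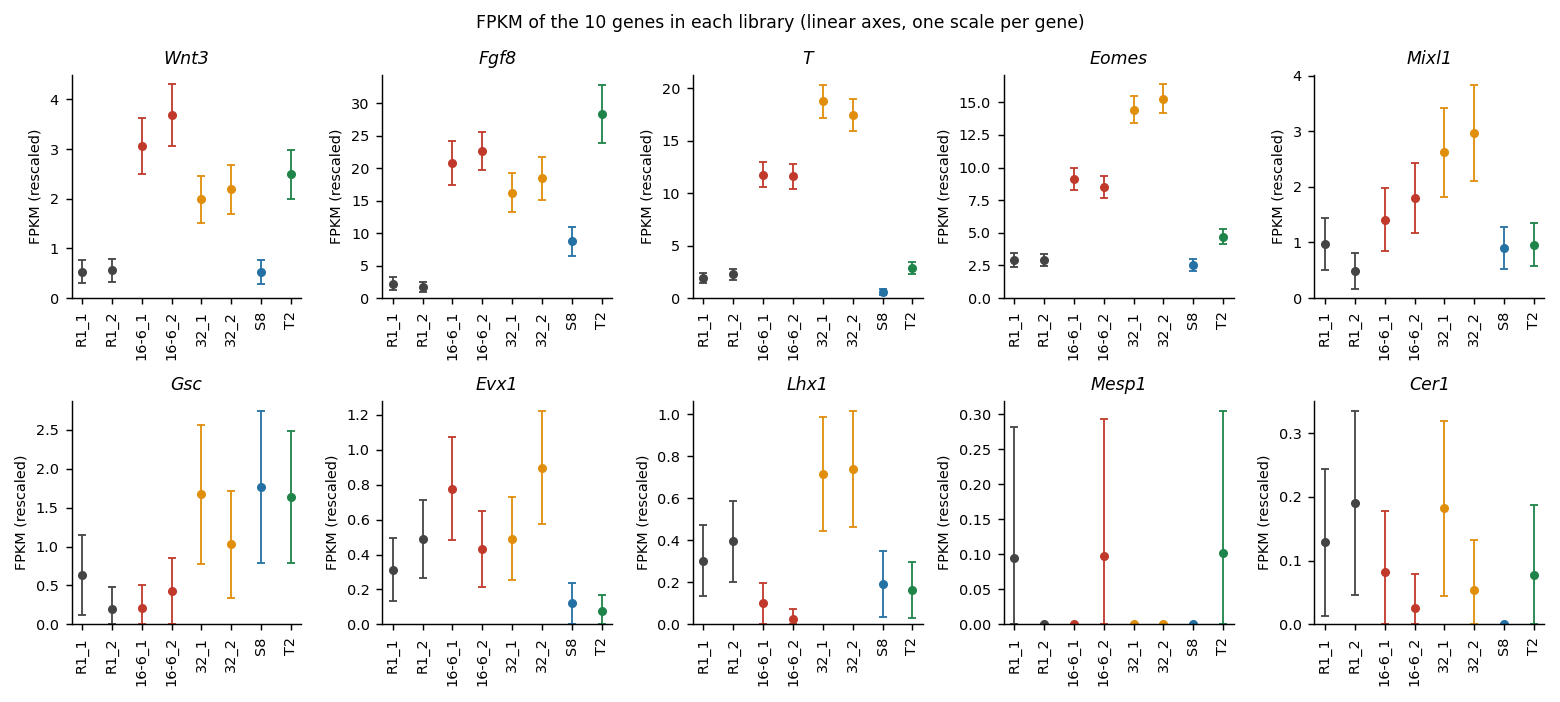
FPKM (y axis, linear, 1 scale per gene) of the 10 genes in each of the 8 libraries (x axis, coloured by line). Points are the deposited values after rescaling and bars are Cufflinks 95% limits, which are absent where a value is 0. T, Eomes and Wnt3 stand above both R1 libraries in 16-6 and 32 and not in S8, while Fgf8 does so in all 4 iPSC lines.

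Among the signals, Wnt3 encodes the secreted Wnt ligand that is required to form the streak. Its gene lies on the plus strand of chromosome 11 from 103635489 to 103679335 in mm9. The FPKM of Wnt3 was 0.53 and 0.56 in the R1 libraries, 3.06 and 3.69 in those of 16-6, 1.99 and 2.19 in those of 32, 0.53 in S8 and 2.49 in T2. The libraries of 16-6, 32 and T2 all lay above R1, and S8 lay at the level of R1. Against R1, Wnt3 was 6.20-fold higher in 16-6 on the FPKM scale, a log2 difference of 1.498 ± 0.096 (SE, limma adjusted p = 0.00036). In T2 it was 4.58-fold higher, a log2 difference of 1.18 ± 0.12 (adjusted p = 0.0012, limma). In 32 it was 3.84-fold higher on the FPKM scale. There the log2 difference was 0.9988 ± 0.096 (adjusted p = 0.00086, limma), just under the 2-fold minimum. This difference passed the minimum with 1.05 without 32 replicate 1 and with 1.01 without R1 replicate 2. In S8 the log2 difference was -0.02 ± 0.12 (adjusted p = 0.92, limma). From high to low the lines ran 16-6, T2, 32, R1 and S8, and of these neighbours only 32 and R1 differed at an adjusted p below 0.05.

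Fgf8 encodes a growth factor that streak cells need in order to migrate away. It lies on the minus strand of chromosome 19 from 45811288 to 45817374. Its FPKM was 2.24 and 1.65 in R1, 20.8 and 22.6 in 16-6, 16.2 and 18.4 in 32, 8.74 in S8 and 28.3 in T2. Every iPSC library lay above both R1 libraries. Fgf8 was the only one of the 6 tested genes called higher in all 4 iPSC lines. The log2 difference from R1 was 2.96 ± 0.12 in 16-6 (adjusted p = 0.00013, limma), an 11.2-fold higher FPKM. It was 2.64 ± 0.12 in 32 (adjusted p = 0.00010, limma), 1.73 ± 0.15 in S8 (adjusted p = 0.00047) and 3.32 ± 0.15 in T2 (adjusted p = 0.00020).

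Among the iPSC lines S8 was the lowest in Fgf8. Its log2 difference was -1.22 ± 0.15 from 16-6 and -0.91 ± 0.15 from 32, and T2 lay above S8 by 1.59 ± 0.17. The other iPSC lines lay closer together. T2 lay above 32 by 0.68 ± 0.15 in log2 (adjusted p = 0.015, limma). Neither T2 against 16-6, with 0.37 ± 0.15 (adjusted p = 0.088, limma), nor 16-6 against 32, with 0.31 ± 0.12 (unadjusted p = 0.046 and adjusted p = 0.071, limma), passed an adjusted p of 0.05. The annotation gives Fgf8 6 coding transcripts. The FPKM per implied fragment of Fgf8 was 0.93 to 1.72 times the R1 mean across the iPSC libraries, whereas for T it was 1.02 to 1.14 times. For Fgf8 the implied fragments were not whole numbers in several libraries, with 151.1 and 238.1 in 16-6 at an FPKM of 20.8 and 22.6. They may thus reflect the width of the limits and not counted fragments. With 1 value per fragment for each gene in all libraries, an alternative chosen after seeing the data, the difference from R1 became 2.604 in T2 and 1.40 in S8, both still called. T2 was no longer the highest line there, but as this alternative relies on the implied fragments, it cannot settle the order of the lines for Fgf8.

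The T-box genes T and Eomes encode related transcription factors, of which T drives mesoderm formation and Eomes is needed for mesoderm delamination and definitive endoderm. T lies on the plus strand of chromosome 17 from 8627288 to 8635361, and Eomes on the plus strand of chromosome 9 from 118387307 to 118395250. The FPKM of T was 1.88 and 2.28 in R1, 11.8 and 11.6 in 16-6, 18.8 and 17.5 in 32, 0.578 in S8 and 2.85 in T2. These values rested on 62 and 78 implied fragments in R1, 384 and 383 in 16-6, 581 and 532 in 32, 17 in S8 and 90 in T2. The lines 16-6 and 32 stood apart as high, and S8 was the lowest.

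Against R1, T was 5.63-fold higher in 16-6 and 8.72-fold higher in 32 on the FPKM scale. The log2 differences were 2.05 ± 0.085 (adjusted p = 0.00014, limma) and 2.64 ± 0.085 (adjusted p = 3.8e-05, limma). In T2 the log2 difference was 0.32 ± 0.10 (adjusted p = 0.045, limma), under the 2-fold minimum. In S8 the FPKM of T was 0.278 times that of R1, a log2 difference of -0.96 ± 0.10 (adjusted p = 0.00097, limma), also under the 2-fold minimum. The S8 value passed the minimum with -1.06 without R1 replicate 1, with -1.02 when every library was scaled to the same total, with -1.02 at 1 value per fragment and with -1.68 at a pseudocount of 0.1. All 4 pairs of neighbours in the order 32, 16-6, T2, R1 and S8 differed at an adjusted p below 0.05, 16-6 and 32 by 0.59 ± 0.085 (adjusted p = 0.0030, limma).

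The FPKM of Eomes was 2.91 and 2.93 in R1, 9.13 and 8.5 in 16-6, 14.4 and 15.3 in 32, 2.53 in S8 and 4.72 in T2. The lines kept the order seen for T. Eomes was 3.02-fold higher than R1 in 16-6, a log2 difference of 1.32 ± 0.062 (adjusted p = 0.00018, limma), and 5.09-fold higher in 32, a log2 difference of 2.02 ± 0.062 (adjusted p = 3.4e-05, limma). The difference was 0.54 ± 0.076 in T2 (adjusted p = 0.0032, limma) and -0.15 ± 0.076 in S8 (adjusted p = 0.13, limma). Per length, T lay above Eomes in all 4 libraries of 16-6 and 32, and Eomes lay above T in the other 4 libraries. Over the 8 libraries, which represent only 5 lines, the log2 values of T and Eomes had a Pearson r of 0.97, those of Mixl1 and Eomes 0.93, those of Wnt3 and Fgf8 0.88 and those of T and Gsc -0.13.

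**Figure D2:**
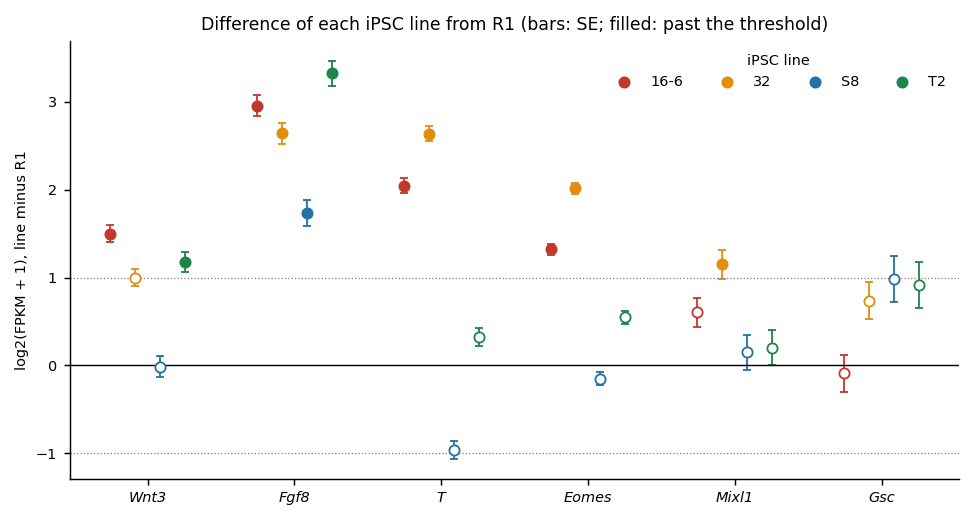
Log2(FPKM + 1) of each iPSC line minus R1 (y axis) for the 6 tested genes (x axis), coloured by line. Bars are standard errors from limma, filled points passed the threshold and dotted lines mark 2-fold in FPKM + 1. T, Eomes and Wnt3 lie high in 16-6 and 32, and Fgf8 is the gene with filled points in all 4 lines.

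The promoters of the T-box genes, of Wnt3 and of Mesp1 are printed because T, Eomes and Wnt3 were higher together in 16-6 while Mesp1, a gene described further down, was near 0 in every line. They are the 250 bases before the RefSeq start of each gene in GRCm38.p6, which is another build than the mm9 of the measurements, read 5′ to 3′ on the strand of the gene. Promoters were given for 8 of the 10 genes, and for Mixl1 and Fgf8 none is printed. Capitals mark the TCF/LEF core, through which Wnt signals act, searched as CTTTGA or CTTTGT on both strands. T is on the plus strand at chr17:8434173-8434422, Eomes on the plus strand at chr9:118477939-118478188, Wnt3 on the plus strand at chr11:103773925-103774174 and Mesp1 on the minus strand at chr7:79793591-79793840.
T: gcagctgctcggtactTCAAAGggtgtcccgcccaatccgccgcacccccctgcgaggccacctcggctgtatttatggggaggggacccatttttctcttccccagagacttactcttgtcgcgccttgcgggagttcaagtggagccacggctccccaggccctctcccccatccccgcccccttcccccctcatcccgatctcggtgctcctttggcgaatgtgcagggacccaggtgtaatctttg
Eomes: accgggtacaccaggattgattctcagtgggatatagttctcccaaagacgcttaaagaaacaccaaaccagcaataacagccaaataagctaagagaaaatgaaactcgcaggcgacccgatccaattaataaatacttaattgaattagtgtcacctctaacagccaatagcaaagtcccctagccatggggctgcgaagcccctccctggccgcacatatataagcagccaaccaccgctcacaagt
Wnt3: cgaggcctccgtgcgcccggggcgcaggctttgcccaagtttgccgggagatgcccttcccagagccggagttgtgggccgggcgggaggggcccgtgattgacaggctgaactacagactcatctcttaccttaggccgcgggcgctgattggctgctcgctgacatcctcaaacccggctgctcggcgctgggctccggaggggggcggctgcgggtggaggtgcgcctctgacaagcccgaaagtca
Mesp1: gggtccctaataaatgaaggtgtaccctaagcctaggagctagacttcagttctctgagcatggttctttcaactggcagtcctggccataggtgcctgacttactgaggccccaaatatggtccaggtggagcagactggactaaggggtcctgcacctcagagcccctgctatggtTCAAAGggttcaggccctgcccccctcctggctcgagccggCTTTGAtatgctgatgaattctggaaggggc
The TCF/LEF core matched 1 time in T, with its first base 234 bases before the start, and 2 times in Mesp1, at 72 and 31 bases before the start. It matched in none of the other 6 promoters, and in 27.6% of all 32851 promoters of this length. The T-box motif GGTGTGA, present in 3.33% of all promoters, matched in none of the 8. The TATA box letters TATAAA, present in 12.4%, matched in Gsc alone, 164 bases before the start. The printed promoters were chosen by expression. The matches describe the sequence only, and no relation between them and the expression values was tested.

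Mixl1 and Gsc encode homeobox factors of the streak, Mixl1 in its mesendoderm and Gsc in its anterior end and the organizer. Mixl1 lies on the minus strand of chromosome 1 from 182623179 to 182627165. Its FPKM was 0.97 and 0.48 in R1, 1.41 and 1.80 in 16-6, 2.62 and 2.97 in 32, 0.90 in S8 and 0.96 in T2. The 2 libraries of 32 were the highest, and the first R1 library overlapped S8 and T2. The log2 difference from R1 was 1.15 ± 0.16 in 32 (adjusted p = 0.0030, limma), and it fell under the 2-fold minimum without R1 replicate 2, with 0.95, and with every library scaled to the same total, with 0.91. In 16-6 it was 0.60 ± 0.16 (adjusted p = 0.029, limma). In the order 32, 16-6, T2, S8 and R1, only 32 and 16-6 differed among neighbours at an adjusted p below 0.05. Mixl1 was read from 9 to 47 fragments a library, and 1 fragment was worth 0.70 times the R1 mean in both S8 and T2.

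Gsc lies on the minus strand of chromosome 12 from 105709419 to 105711446. Its FPKM was 0.63 and 0.20 in R1, 0.21 and 0.42 in 16-6, 1.67 and 1.03 in 32, 1.76 in S8 and 1.64 in T2. Unlike T and Eomes, it was lowest in R1 and 16-6 and highest in S8, T2 and 32. These sets of lines were read off the Gsc values, so the lack of overlap between their libraries is no separate evidence. The Cufflinks limits of the nearest libraries overlapped, 0.12 to 1.15 in R1 replicate 1 and 0.34 to 1.72 in 32 replicate 2. The FPKM values rested on 2 to 15 fragments a library. Against R1 the log2 difference was 0.98 ± 0.26 in S8 (adjusted p = 0.022, limma), 0.92 ± 0.26 in T2 (adjusted p = 0.032, limma), 0.74 ± 0.21 in 32 (adjusted p = 0.032, limma) and -0.09 ± 0.21 in 16-6 (adjusted p = 0.74, limma), so no line reached the 2-fold minimum. The minimum applies to FPKM + 1. On the FPKM scale, Gsc was 4.23 times R1 in S8, 3.95 times in T2 and 3.25 times in 32. Without R1 replicate 1 the log2 differences in S8 and T2 passed the minimum, with 1.21 and 1.14.

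The other 4 genes, Evx1, Lhx1, Mesp1 and Cer1, did not reach an FPKM of 1 anywhere and so were left untested. Evx1, a homeobox gene of the posterior streak, lies on the plus strand of chromosome 6 from 52263492 to 52268372. It was read from 12 and 19 fragments in R1, 28 and 16 in 16-6, 17 and 31 in 32, 4 in S8 and 3 in T2. The 2 single libraries S8 and T2 lay below the other 6. This split was read off the Evx1 values and is no separate evidence. The Cufflinks limits overlapped, from an FPKM of 0.13 in R1 replicate 1 and up to 0.24 in S8 and 0.17 in T2. Evx1 overlaps the antisense noncoding gene 5730457N03Rik, and whether the counting used strand is not given in the sources used here, so reads of the 2 genes may be mixed.

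Lhx1, a LIM homeobox gene of the anterior streak and node derivatives, lies on the minus strand of chromosome 11 from 84332881 to 84339036. It was read from 13 and 17 fragments in R1, 4 and 1 in 16-6, 28 and 29 in 32, 6 in S8 and 6 in T2. The FPKM of Lhx1 was 0.72 and 0.74 in 32 and 0.10 and 0.02 in 16-6, so that the 2 lines with the highest T lay at opposite ends for Lhx1.

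Mesp1, the basic helix-loop-helix factor of the first cardiac mesoderm, lies on the minus strand of chromosome 7 from 86937127 to 86938476. It had 1 fragment in R1 replicate 1, 1 in 16-6 replicate 2 and 1 in T2, and 0 in the other 5 libraries. A count of 0 allows up to 3 fragments, an FPKM of 0.282 to 0.319 in these 5 libraries, from counting error only. Cer1, a secreted antagonist of Nodal, BMP and Wnt made by anterior endoderm, lies on the minus strand of chromosome 4 from 82527655 to 82531055. It had 5 and 7 fragments in R1, 3 and 1 in 16-6, 7 and 2 in 32, 0 in S8 and 2 in T2. The 0 in S8 allows an FPKM of up to 0.080. Differences between lines were not detectable for Mesp1 and Cer1 at this depth.

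Between 16-6 and 32, none of the 6 tested genes passed the minimum of 1 in log2(FPKM + 1) by limma, where 10.3% of all entries were called in either direction. At an unadjusted p below 0.05 all 6 genes differed between these lines, and 5 did at an adjusted p below 0.05 without a fold minimum, which 60.4% of all entries tested also passed. T, Eomes, Mixl1 and Gsc were higher in 32, and Wnt3 was higher in 16-6. Gsc had the widest gap, with a mean FPKM of 0.318 in 16-6 and 1.35 in 32, which is 0.236 times as much in 16-6, and a log2(FPKM + 1) difference of -0.83 ± 0.21 (adjusted p = 0.022, limma). It passed the minimum with -1.81 at a pseudocount of 0.1, with -1.105 under quantile normalization and with -1.02 without 32 replicate 2.

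S8 lay furthest from these lines. It was lower than 16-6 in T, Eomes, Wnt3 and Fgf8, where 10.4% of all entries were called lower, and lower than 32 in T, Eomes, Mixl1 and Wnt3, where 4.56% were called lower. The log2 difference of T was -3.01 ± 0.10 from 16-6 (adjusted p = 5.5e-05, limma) and -3.60 ± 0.10 from 32 (adjusted p = 8.1e-05, limma). Those of Mixl1 and Wnt3 from 32 were close to the minimum, -1.001 ± 0.20 and -1.014 ± 0.12, and without 32 replicate 2 they were -0.93 and -0.97. Gsc was higher in S8 than in 16-6, where 6.9% of all entries were called higher, by 1.07 ± 0.26 (adjusted p = 0.016, limma), with an adjusted p of 0.064 without 16-6 replicate 1.

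T2 was lower than 16-6 in T, with a log2 difference of -1.72 ± 0.10 (adjusted p = 0.00042, limma), and higher in Gsc, by 1.01 ± 0.26 (adjusted p = 0.026, limma), where 6.39% of all entries were called lower and 1.68% higher. The Gsc call was lost without either 16-6 library, with adjusted p-values of 0.094 and 0.059. T2 was lower than 32 in T and Eomes, where 2.79% were called lower, by log2 differences of -2.31 ± 0.10 and -1.47 ± 0.076. T2 was higher than S8 in T, Wnt3 and Fgf8, where 1.83% of all entries were called higher, by 1.29 ± 0.12, 1.19 ± 0.14 and 1.59 ± 0.17 in log2. These are 1 library against 1 library, with the spread taken from the other lines. The study lists far more reads for S8 and T2 than for the other lines, with a lower share uniquely mapped. The fragments implied by the limits did not differ in this way. Which libraries were sequenced together is not given in the sources used here, so line and sequencing run cannot be told apart.

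Taken as 1 group of 4 lines, the mean of the iPSC lines lay above R1 in Fgf8, by 2.66 ± 0.099 (adjusted p = 7.1e-05, limma), and in T, by 1.01 ± 0.070 (adjusted p = 0.00030, limma). Of all entries, 1.85% were called higher in this comparison. The call for T rested on R1 replicate 1, without which the difference was 0.92, and it was also lost with every library scaled to the same total (0.95) and at 1 value per fragment (0.97). It averages lines far above and below R1. An F test over the 5 lines passed for all 6 genes, and also for 88.4% of all entries, so it says little about them.

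Of 20 other genes of the streak and nascent mesoderm, 14 were tested. In 16-6, 5 were higher and 1 lower than R1, in 32, 2 higher and 1 lower, in S8, 2 higher and 3 lower, and in T2, 2 higher and 2 lower. The list medians were 0.36, -0.02, -0.09 and -0.11. The 6 untested genes, among them Tbx6, Msgn1 and Wnt3a of the later presomitic and tail bud mesoderm, reached an FPKM of at most 0.651. Wnt8a, a streak Wnt ligand, was higher in all 4 iPSC lines, by log2 differences of 2.38 in 16-6, 2.05 in 32, 1.16 in S8 and 2.52 in T2. Its FPKM was 0.87 and 0.65 in R1, 8.23 and 8.08 in 16-6, 6.04 and 6.495 in 32, 2.91 in S8 and 9.05 in T2. Cdx1, a caudal homeobox target of Wnt signals, was called higher in 16-6 and 32, by 2.02 and 2.40, with an FPKM of 0.58 and 0.12 in R1, 5.03 and 3.83 in 16-6 and 5.29 and 6.84 in 32, beside 0.19 in S8 and 0.71 in T2. Like Wnt3, both genes lay below an FPKM of 1 in R1 and passed the filter through iPSC libraries.

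Sp5, a Wnt target expressed in the streak, was higher in 16-6, with a log2 difference of 1.34, and lower in S8, with -1.75, where its FPKM was 0.76 beside 5.17 and 4.72 in R1. Snai1, the repressor of E-cadherin in cells that leave the epiblast, was higher by 1.11 in 16-6 and lower in the other iPSC lines, with log2 differences of -1.76 in 32, -1.28 in S8 and -1.45 in T2. The 2 lines with high T had Snai1 on opposite sides of R1, as they had the fibroblast marker sum given further down. The other genes called in this list, named after their values were seen, were Nkx1-2 (higher in 16-6 and T2), Fgf3 (higher in S8), Dll1 (lower in 16-6) and Rspo3 (lower in S8 and T2). Of 12 definitive endoderm and node genes 6 were tested, with list medians from 0.02 in 16-6 to 0.36 in 32. The only call against R1 was Otx2, an anterior homeobox gene, lower in 16-6 with a log2 difference of -1.596 ± 0.052. In 32, S8 and T2 none was called by limma, with 6, 3 and 3 at an unadjusted p below 0.05. Sox17, Foxa1 and Foxa3 were among the 6 below the filter.

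In the Nodal list all 15 genes were tested, with 1 higher in 16-6, none called by limma in 32 (13 at an unadjusted p below 0.05), 3 higher and 1 lower in S8 and 2 higher in T2. Lefty1, a Nodal target and inhibitor, was higher in S8 and T2, by 2.38 ± 0.13 and 2.31 ± 0.13, with an FPKM of 309 and 295.7 beside 54.9 and 62.8 in R1. It was 105.6 and 118.1 in 16-6, a log2 difference of 0.92 ± 0.11 (adjusted p = 0.0019, limma) under the minimum, and 47.8 and 55.6 in 32. Foxh1, a partner of Smad2, was higher by 1.67 in S8 and 1.43 in T2. Smad3, a signal transducer, was lower in S8, with -1.40. Furin, a protease that matures Nodal, was higher by 1.20 in 16-6. Lefty2, named after its values were seen, was higher by 1.04 in S8. Nodal itself, the ligand, also named after its values were seen, was not called in any line. Its FPKM was 24.5 and 29.8 in R1, 29.4 and 29.6 in 16-6, 21.7 and 21.3 in 32, 45.7 in S8 and 47.4 in T2. The log2 differences from R1 were 0.12 ± 0.093 in 16-6, -0.32 ± 0.093 in 32, 0.74 ± 0.11 in S8 and 0.79 ± 0.11 in T2, under the minimum. The list medians were 0.07 in 16-6, 0.28 in 32, 0.0043 in S8 and -0.06 in T2.

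In the Wnt list 13 of 16 genes were tested. In 16-6, 2 were higher, Sp5 and Wls, the carrier of Wnt secretion, which was higher by 1.5 ± 0.12. In 32, Wls was the 1 gene lower, with -1.31 ± 0.12, in S8 the 1 gene lower was Sp5, and in T2 none of the 13 was called by limma (6 at an unadjusted p below 0.05). The list medians lay between -0.16 in S8 and 0.15 in 32. In the FGF list all 14 genes were tested, with 1 higher in 16-6, 1 higher and 1 lower in 32, 1 higher and 1 lower in S8, and 2 higher and 1 lower in T2. Fgf5, a ligand of the egg cylinder epiblast, was higher by 1.13 in 16-6, 1.64 in 32 and 1.92 in T2. The FGF feedback inhibitor Spry1 was higher by 1.39 in S8 and 1.61 in T2, and Spry4 was lower in the same lines, with log2 differences of -1.49 and -1.06. Fgf15 was lower in 32, with -1.55. The medians of the FGF list were -0.0011 in 16-6, 0.12 in 32, 0.13 in S8 and 0.22 in T2.

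**Figure D3:**
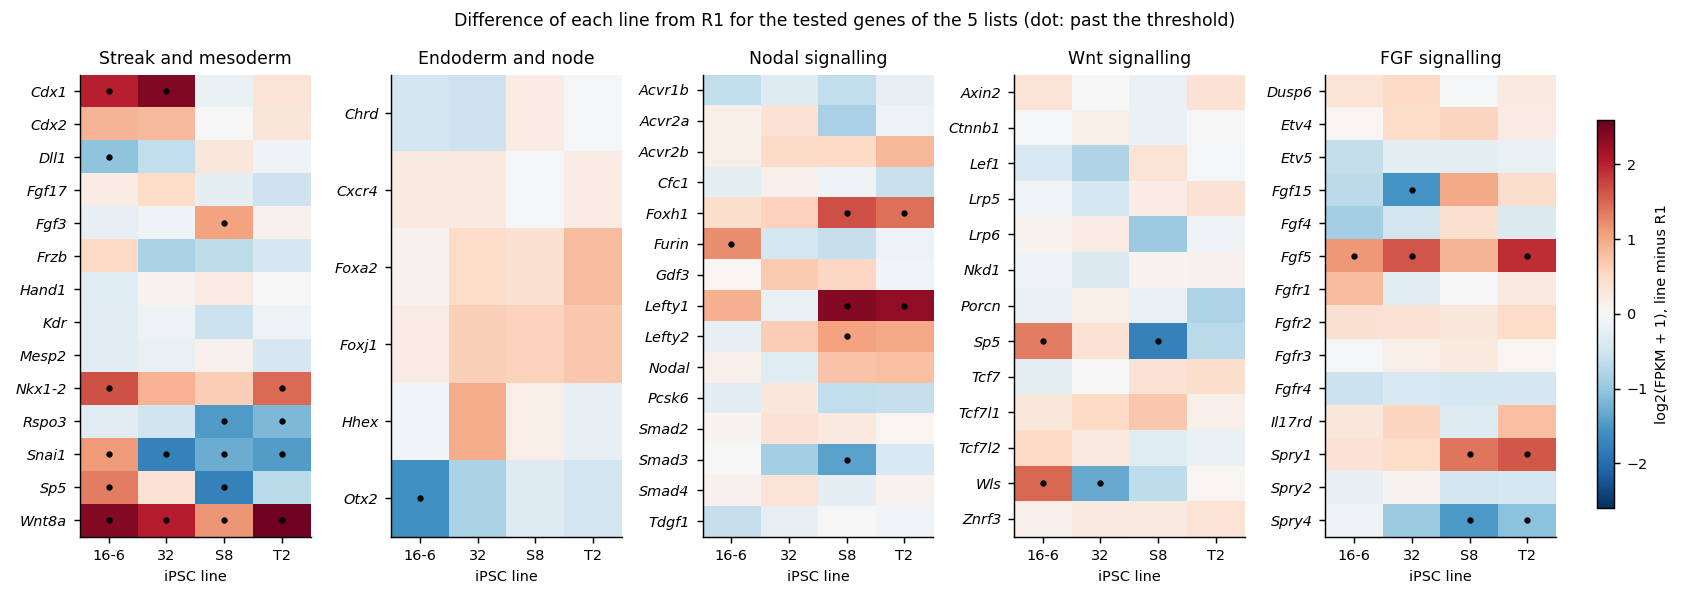
Difference from R1 in log2(FPKM + 1) (colour) for each tested gene (rows) of 5 lists in each iPSC line (columns). Dots mark genes past the threshold. Wnt8a carries a dot in all 4 lines, Cdx1 in 16-6 and 32, and Lefty1 in S8 and T2.

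Markers of other cell types moved with the lines too. The 12 fibroblast markers, to which the feeder cells would contribute, summed to an FPKM of 1087 and 1195 in R1, 3410 and 3434 in 16-6, 270.6 and 261.6 in 32, 701.8 in S8 and 946.1 in T2. Of the 12 fibroblast markers, 8 were higher than R1 in 16-6 and 2 lower, Dcn with a log2 difference of -2.63 and Lum with -2.72, and 1 was higher and 10 were lower in 32. All 12 were higher in 16-6 than in 32. Among the genes of the pathway lists, Snai1, Wls and Furin were called higher in 16-6 than in 32, by log2 differences of 2.87, 2.81 and 1.66. So were Frzb, Lefty1 and Fgfr1, by 1.33, 1.10 and 1.10, while Hhex was called lower, with -1.05. Of all entries, 10.3% were called in either direction in this comparison. The part of the feeder cells in these genes was not tested. T and Eomes were higher than R1 in both of these lines. No fibroblast marker was at 0 in any library.

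Some markers of the primed epiblast, the stage next before the streak, were called higher in every iPSC line. Of 7, 3 were higher in 16-6 and the same 3 in 32 (Cldn6, Fgf5 and Krt18), 5 in S8 and 6 in T2. Otx2 was called lower in 16-6. It also lay below R1 in 32, S8 and T2, with log2 differences of -0.82, -0.34 and -0.49, under the minimum. The summed FPKM of the 7 markers was 270.4 and 300.3 in R1, 455.8 and 461.3 in 16-6, 416.4 and 415.2 in 32, 913.9 in S8 and 928.7 in T2. S8, with the lowest T, had a sum close to that of T2. The list shares Fgf5 with the FGF list and Otx2 with the definitive endoderm and node list.

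Visceral and primitive endoderm markers summed to an FPKM of 34.8 and 37.7 in R1 and to between 12 and 29.97 in the iPSC libraries, with Ttr at 0 in every library. Of the 8 tested none was called higher, while Pdgfra and Dab2 were lower in 32, S8 and T2. The log2 differences were -2.94, -1.93 and -1.79 for Pdgfra and -2.30, -1.62 and -1.14 for Dab2. Lama1 was lower in S8 and T2, with -1.64 and -1.55. In 32, Lama1 and Foxa2 lay above R1 without a call. The FPKM of Lama1 was 16.3 and 15.8 in 32 beside 8.71 and 8.76 in R1, and that of Foxa2 was 0.81 and 0.85 beside 0.24 and 0.41. In 16-6 none was called by limma, with 2 at an unadjusted p below 0.05. Neural ectoderm markers summed to 15.03 and 14.87 in R1, 48.2 and 46.9 in 16-6, 31.1 and 31.4 in 32, 17.3 in S8 and 33.1 in T2. Of the 4 tested, Nes, an intermediate filament gene of neural progenitors, was higher in 16-6, 32 and T2, and Sox1, a factor of the neural plate, was higher in S8, by 1.43 ± 0.11 (adjusted p = 0.00034, limma). Most of each sum was Nes, with an FPKM of 42.3 and 41.4 in 16-6 beside 10.04 and 10.21 in R1. Zic1 and Pax6 were not called. Zic1 was 0.23 and 0.45 in 32, 0.38 in S8 and 0.38 in T2 beside 1.39 and 1.00 in R1. Pax6 lay below R1 in 16-6 and T2 and above it in 32 and S8. Trophoblast markers summed to 5.63 to 12.3, and the only call was Krt7, higher in S8. Among the 10 pluripotency markers, Zfp42 (Rex1), a marker of the naive state, was lower than R1 in all 4 iPSC lines, with log2 differences of -1.92 in 16-6, -1.02 in 32, -2.18 in S8 and -2.53 in T2. Esrrb was lower in 16-6, S8 and T2, with -1.04, -1.56 and -1.73, Nanog in S8, with -1.11, and Klf4 in T2, with -1.25, while Utf1 was higher in S8, by 1.46. The part of these other markers in the values of the streak genes was not tested.

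**Figure D4:**
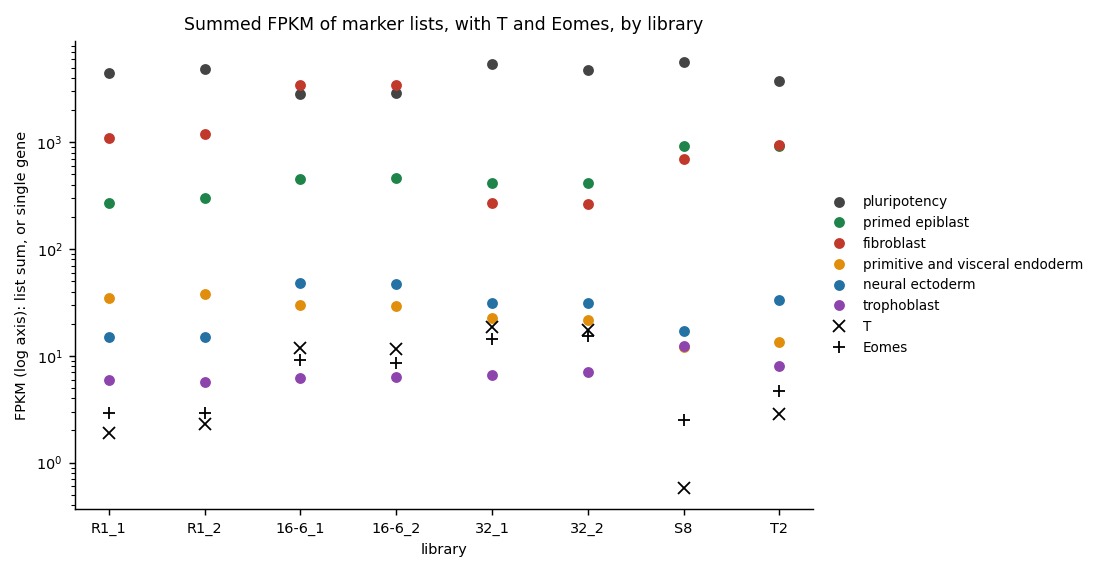
Summed FPKM of 6 marker lists and the FPKM of T and Eomes (y axis, log scale) in each of the 8 libraries (x axis). The fibroblast sum is 3410 and 3434 in 16-6 and 270.6 and 261.6 in 32, while the crosses for T stand highest in these 2 lines.

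For each tested gene, the 3 genes with the most similar pattern were those with the highest Pearson r over the 8 libraries among about 12644 genes with a mean FPKM of at least 1. The libraries are only 5 lines, so high values of r are easily reached and no test is given. Fgf8 was most like Wnt8a (r = 0.996), followed by Pmaip1, a target of p53, and Krt18, a keratin. Wnt3 was most like Nes (r = 0.993), followed by Zfp334 and Greb1l. T was most like Cldn12, a claudin (r = 0.989), followed by Fbxl18 and Mfap3, and Eomes was most like Nhlrc2 (r = 0.992), followed by Camsap1 and Ptbp2. The genes most like T and Eomes spanned far smaller ranges than these, Cldn12 for example from an FPKM of 17.04 in S8 to 32.2 in 32 replicate 2. Mixl1 was most like Gnl2, Alg8 and Denr (r = 0.968, 0.960 and 0.957), and Gsc was most like Fbxo27, Zfp212 and Frat2 (r = 0.967, 0.967 and 0.956).

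**Figure D5:**
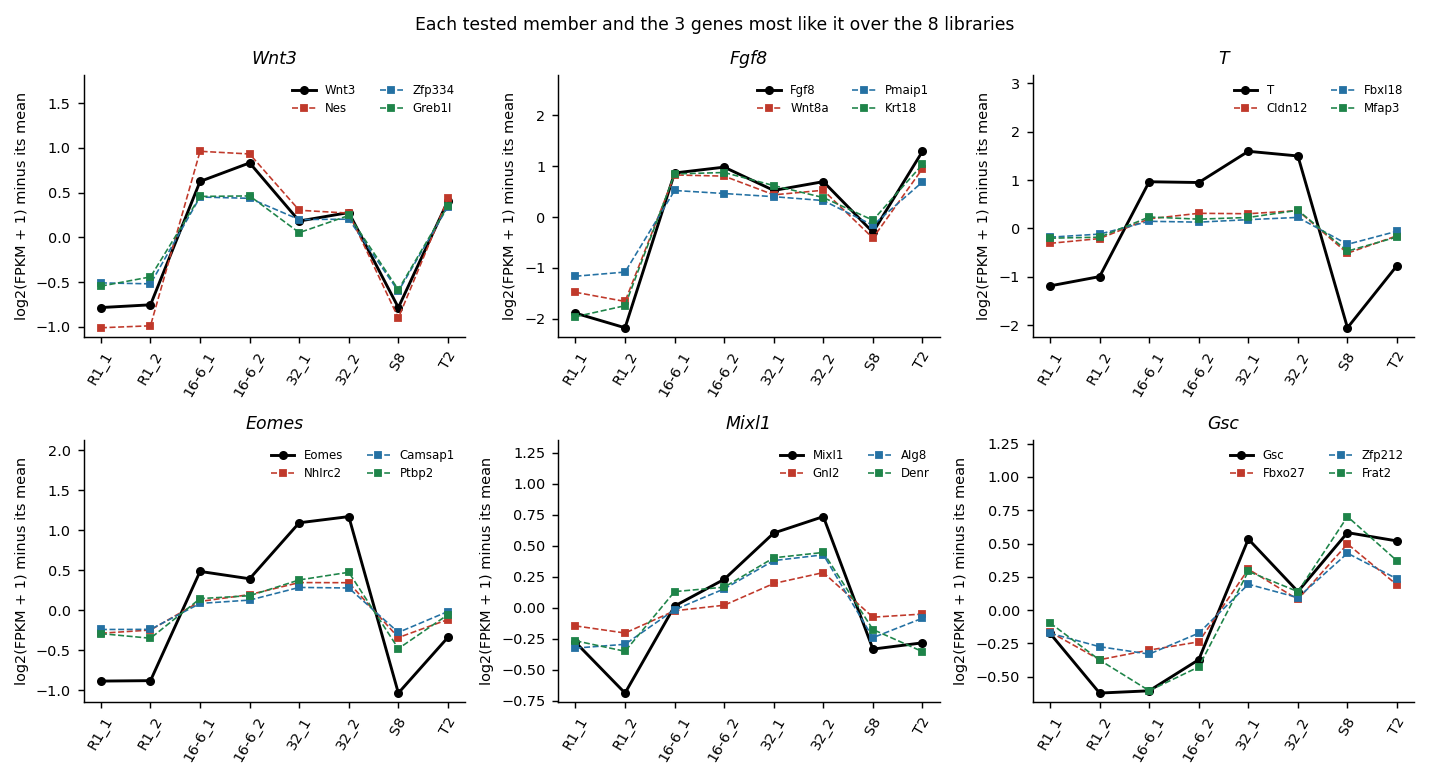
Log2(FPKM + 1) minus its mean over the 8 libraries (y axis) for each tested gene (black) and the 3 genes most like it (coloured, dashed), by library (x axis). Lines only join the libraries of a gene. Wnt8a has the line order of Fgf8, over a smaller range, while Cldn12, Fbxl18 and Mfap3 follow the order of T over a smaller range.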

How the data were processed

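For 8 RNA-Seq libraries, the authors aligned paired reads uniquely with TopHat 2.0.4, using UCSC gene models on mm9, and deposited FPKM with confidence limits from Cufflinks (2.0.0 in the submitters' processing notes), which the methods call RPKM. The options are not given in the sources used here. The deposited FPKM were divided by 12725.7, which sets the median library total to 1000000. Fragments were implied from the upper limit as the square of 2 × FPKM / (limit − FPKM). Among low implied values, 80.8% to 82.3% per library were whole or nearly so, and the rest may not be counts of fragments. The 13693 entries that reached an FPKM of 1 somewhere were tested on log2(FPKM + 1) with limma 3.58.1 (lmFit, eBayes with trend, 3 residual degrees of freedom) in R 4.3.3, after the fit had been tested on simulated data. Tables used Python 3.11.15 and pandas 2.3.3.

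The members and lists were chosen with earlier results of these data known. The text names all members, up to 4 genes per pathway list with the largest difference from R1 among those past the threshold, and for each tested member the 3 genes most correlated with it. Promoters were read from RefSeq. Alternatives were another pseudocount, other filters, 2 scalings, no trend, no fold minimum, a replicate block, 16-6 as 1 sample, and leaving out each replicate. An alternative chosen after seeing the data gave every fragment of a gene 1 value.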

Additional observations from a re-analysis of the deposited data

Results flagged for a closer look

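Of 36 differences between 2 iPSC lines in the 6 tested genes, 16 passed the threshold (limma, from the fit over all genes). Each is a test that the lines differed from R1 by different amounts. Of all entries tested, 10.4% were called lower and 6.9% higher in S8 against 16-6, and 4.56% lower in S8 against 32. In T2, 6.39% were called lower and 1.68% higher against 16-6, 2.79% lower against 32 and 1.83% higher against S8. In 16-6 against 32, 10.3% were called in either direction. As Wnt3, Mixl1 and Gsc passed the filter through iPSC libraries, the count is no evidence about the group. Negative values are lower in the line named first. For T the log2 differences were -3.01 in S8 against 16-6, -3.60 in S8 against 32, -1.72 in T2 against 16-6, -2.31 in T2 against 32 and 1.29 in T2 against S8. For Eomes they were -1.48 in S8 against 16-6, -2.17 in S8 against 32 and -1.47 in T2 against 32. For Wnt3 they were -1.51 in S8 against 16-6, -1.01 in S8 against 32 and 1.19 in T2 against S8. For Fgf8 they were -1.22 in S8 against 16-6 and 1.59 in T2 against S8, and the latter had an adjusted p of 0.058 at 1 value per fragment. For Mixl1 the difference was -1.001 in S8 against 32, and it fell under the minimum at 1 value per fragment (-0.70) and with every library scaled to the same total (-0.83). For Gsc they were 1.07 in S8 against 16-6 and 1.01 in T2 against 16-6. Both Gsc calls were lost at 1 value per fragment, with 0.87 and 0.93. All 16 involve S8 or T2, which have 1 library each.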

How the results depend on the processing

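Of 112 counts of tested genes past the threshold under an alternative, 90 stayed within 1.5 times the main count and 22 did not. With an FPKM of at least 1 required in every library only Eomes and Fgf8 could be tested, which gave 2 in 16-6, 2 in 32, 1 in T2, 1 for the mean of the iPSC lines and 2 in the F test. Scaling to the same total gave 2 in S8 and 1 for the mean. A pseudocount of 0.1 gave 3 in S8, 5 for the mean and 1 for 16-6 against 32. Quantile normalization gave 2 in S8, 4 for the mean and 1 for 16-6 against 32. Without a fold minimum the counts were 3 in S8, 5 in T2, 6 for the mean and 5 for 16-6 against 32, where 66.7%, 57.9%, 65% and 60.4% of all entries passed. At 1 value per fragment they were 2 in S8 and 1 for the mean. Leaving out 1 replicate gave 1 to 3 in S8 (3 without R1 replicate 1), 1 to 2 for the mean (1 without R1 replicate 1), 0 to 1 for 16-6 against 32 (1 without 32 replicate 2), 4 in 16-6, 4 to 5 in 32 and 2 to 3 in T2.

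Of 916 differences of single genes under an alternative, 852 kept direction and side of the threshold, 29 newly passed it, 21 no longer did and 14 changed sign, none of them past the threshold in either fit. Under quantile normalization the sign changed for Eomes in S8 against R1 (0.12), Gsc in 16-6 against R1 (0.046), Wnt3 in S8 against R1 (0.28), Mixl1 in T2 against S8 (-0.025), and Gsc (-0.047) and Wnt3 (-0.067) in T2 against 32. It changed for Gsc in T2 against S8 with the same total (0.10) and at 1 value per fragment (0.064), and for Fgf8 in T2 against 16-6 at 1 value per fragment (-0.30). Leaving out 1 replicate changed it for Mixl1 against R1 without R1 replicate 2 (range -0.055 to 0.354 in S8 and -0.0048 to 0.404 in T2), for Gsc in 16-6 against R1 without 16-6 replicate 1 or R1 replicate 1 (range -0.315 to 0.134, main -0.09), and for Gsc in T2 against 32 without 32 replicate 2 (range -0.014 to 0.380). The causes were not tested.

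Same-total scaling moved the median of all genes to -0.31 in 32 and -0.15 in S8. Replicate numbers did not pair the samples (correlations of replicate differences -0.097, 0.001 and 0.028). A replicate block over R1, 16-6 and 32 gave 4 in 16-6, 4 in 32, 0 between them and 6 in the F test, as without it. The 4 genes under the filter, and Gsc with 2 to 15 fragments a library, are limited by depth.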

Other observations

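Without a filter on low values, Lhx1 could also be tested. It was higher in 32 than in R1 by 0.36 ± 0.053 on the log2(FPKM + 1) scale (adjusted p = 0.016, limma) and lower in 16-6 than in R1, with -0.35 ± 0.053 (adjusted p = 0.019, limma), both under the 2-fold minimum. Evx1 in the same fit differed from R1 by 0.19 ± 0.19 in 16-6 and 0.27 ± 0.19 in 32 (adjusted p = 0.56 and 0.40, limma), and by -0.32 ± 0.23 in S8 and -0.37 ± 0.23 in T2 (adjusted p = 0.40 and 0.34, limma).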
